A study of Mus musculus with 8 samples.

Results

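The genes described here encode the T cell receptor complex and the proteins that mark T cell subsets, namely Cd3e, Cd3d, Cd3g, Cd247, Cd4, Cd8a, Lck, Zap70, Foxp3 and Il7r. For each symbol, the locus of the deposited gene table that carries the name was taken, and where a name stood on several loci, the one with the largest sum of counts over all libraries. All 10 genes were found among 48607 loci. RNA of the entire aorta was sequenced in 8 libraries from mice that lacked apolipoprotein E and ate a Western diet for 12 weeks. The titles name ApoE-/- for 5 libraries, called ApoE-/- 1 to 5 here, and NPRC-/-ApoE-/- for 3, called NPRC-/-ApoE-/- 1 to 3, in which NPRC, the natriuretic peptide receptor C encoded by Npr3, is also deleted. Both genotypes therefore lack apolipoprotein E, and the difference between them is the germline frameshift in Npr3, which affects every cell type and not the vessel wall alone. The methods describe littermates, and the labels give no age.

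A second label contradicts the title in 4 libraries. The genotype field reads NPRC-/-ApoE-/- in ApoE-/- 4 and in ApoE-/- 5, while it reads ApoE-/- in NPRC-/-ApoE-/- 1 and in NPRC-/-ApoE-/- 2. Groups were formed by title, and every result was repeated by genotype entry, which also gives 5 libraries against 3. The level of Npr3 separates neither grouping, at 0.62 to 1.69 FPKM where the title is ApoE-/- and 1.13 to 1.39 FPKM where it is NPRC-/-ApoE-/-. FPKM are fragments counted per length of transcript and divided by the depth of the library. A frameshift can leave the transcript in place, so these levels check neither label. Libraries held 62969165 to 86693276 counts in total. No pair of libraries agreed within sampling noise.

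T cells read antigen through a receptor whose variable chains carry no signalling part of their own. The invariant chains encoded by Cd3e, Cd3d, Cd3g and Cd247 transmit the signal, the kinase LCK, which is held by the coreceptors CD4 and CD8, phosphorylates them, and the kinase ZAP70 then binds the phosphorylated chains. FOXP3 is the transcription factor that defines regulatory T cells, and IL7R is the receptor chain through which naive and memory T cells receive survival signals. In atherosclerosis, T cells are found in the plaque and in the adventitia, among far larger numbers of macrophages and smooth muscle cells. Some of these genes are not confined to T cells: Cd4 is also transcribed by subsets of dendritic cells, Il7r by innate lymphoid cells and Lck by natural killer cells.

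The starts of 5 of the genes are printed first because they show the range of the results below: the neighbours Cd3e, Cd3d and Cd3g, whose means were lower by title and of which only Cd3e met the criterion given below, Zap70, which had the largest difference by title, and Cd8a, which had hardly any. Each sequence holds 250 bases before the start site and 50 from it, from RefSeq with the build GRCm38.p6, and is written 5′ to 3′ on the strand of the gene. Of the 10 genes, 9 matched an entry, with 13 start sites in all, and Cd4 had no entry. The positions are chr9:45009562-45009861 on the minus strand for Cd3e, chr9:44981536-44981835 on the plus strand for Cd3d, chr9:44980382-44980681 on the minus strand for Cd3g, chr1:36761548-36761847 on the plus strand for the first of 3 Zap70 starts, and chr6:71373177-71373476 on the plus strand for Cd8a. Capitals mark matches, on either strand, to short motifs of factors that act in T cells: TGTGGT for RUNX factors, AGGAAG for factors of the ETS family, AGATAA for GATA factors, CAGCTG and its variant form CAGGTG for E proteins, and CTTTGA for the TCF/LEF factors.
Cd3e: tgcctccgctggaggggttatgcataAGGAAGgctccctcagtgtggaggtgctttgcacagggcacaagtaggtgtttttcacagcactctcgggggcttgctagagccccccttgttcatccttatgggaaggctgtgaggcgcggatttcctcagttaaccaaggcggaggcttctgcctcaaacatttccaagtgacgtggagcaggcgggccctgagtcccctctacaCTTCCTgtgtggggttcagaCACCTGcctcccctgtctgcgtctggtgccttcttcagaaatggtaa
Cd3d: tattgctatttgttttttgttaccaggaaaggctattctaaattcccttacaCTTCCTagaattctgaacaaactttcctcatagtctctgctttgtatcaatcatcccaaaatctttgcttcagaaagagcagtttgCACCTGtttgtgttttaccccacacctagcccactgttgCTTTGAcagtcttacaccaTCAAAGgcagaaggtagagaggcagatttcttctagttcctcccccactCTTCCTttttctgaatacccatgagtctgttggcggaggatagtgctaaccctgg
Cd3g: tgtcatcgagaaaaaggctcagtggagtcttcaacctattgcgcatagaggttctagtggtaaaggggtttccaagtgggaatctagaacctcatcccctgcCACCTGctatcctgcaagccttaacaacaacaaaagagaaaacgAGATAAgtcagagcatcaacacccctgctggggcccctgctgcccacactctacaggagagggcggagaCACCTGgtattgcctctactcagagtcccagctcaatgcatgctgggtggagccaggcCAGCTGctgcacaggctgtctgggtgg
Zap70: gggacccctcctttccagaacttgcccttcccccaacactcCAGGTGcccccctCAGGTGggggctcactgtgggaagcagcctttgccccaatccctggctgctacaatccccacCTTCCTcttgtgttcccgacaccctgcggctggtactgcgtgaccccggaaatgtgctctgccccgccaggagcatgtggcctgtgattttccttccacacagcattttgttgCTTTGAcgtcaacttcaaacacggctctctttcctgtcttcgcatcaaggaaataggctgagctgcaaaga
Cd8a: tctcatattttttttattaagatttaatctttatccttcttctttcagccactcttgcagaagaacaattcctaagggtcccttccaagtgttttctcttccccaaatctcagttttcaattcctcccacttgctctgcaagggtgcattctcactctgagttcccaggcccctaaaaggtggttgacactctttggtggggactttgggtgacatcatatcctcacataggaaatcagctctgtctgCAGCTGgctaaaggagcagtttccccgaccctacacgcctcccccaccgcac

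The ETS letters stood in 9 of the 13 member promoters (69.2%), against 35.4% of all 32851 promoters of this length, and the E protein letters in 10 of 13 (76.9%), against 32.9%. The RUNX letters were in 3 of 13, against 16.8% of all promoters, the GATA letters in 2 of 13, against 11.2%, and the TCF/LEF letters in 3 of 13, against 16.0%. No base in these windows belonged to matches of 2 motifs. In the sequences printed above, Cd3e, Cd3d and Zap70 hold an ETS match, Cd8a holds a single E protein match and no other, and Cd3g holds 3 E protein matches and a GATA match. The 3 Zap70 starts, 2 Lck starts and 2 Foxp3 starts count separately, so the 13 windows are not 13 genes. A match is only a run of letters, and no binding was measured.

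Most of these genes sit in the table as their annotated gene. Cd3g (chromosome 9, 44969572 to 44980431, minus strand), Cd3d (44981786 to 44987339, plus strand) and Cd3e (44998740 to 45009622, minus strand) lie within 40056 bp of each other, and the starts of Cd3g and Cd3d, which point away from each other, are 1355 bp apart. The loci of Cd3d, Cd3g, Cd4 (chromosome 6, 124864692 to 124888221), Zap70 (chromosome 1, 36761798 to 36782818) and Il7r (chromosome 15, 9505788 to 9530176) have the start and end of their gene in the GENCODE M21 annotation of GRCm38, and those of Cd3e and Cd8a (chromosome 6, 71373427 to 71379169) differ from it by 5 and 4 bases at one end. The locus of Lck (chromosome 4, 129548344 to 129558391) stops 15250 bases short of the annotated gene and within 19 bases of the second RefSeq start. It also carries the name Mir8119. The locus of Foxp3 (chromosome X, 7573600 to 7595234) also includes the noncoding gene Flicr.

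Cd247 is the exception. Its name stands on 3 loci, and the locus with the most counts (2603 in all, chromosome 1, 165800967 to 165809242) has no strand, overlaps 0 annotated exons and lies within intron 1 of Cd247. The locus that covers the exons, shared with the noncoding gene Gm16565 (165781075 to 165877277), has 1640 counts. The third, with 1252 counts, is on the opposite strand of the same intron. Values of Cd247 below are those of the intronic locus unless the exonic one is named.

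By level, Il7r was the most abundant of the 10 transcripts, with a mean of 4.39 FPKM over all libraries, followed by Cd4 with 1.89 and Lck with 1.10 FPKM. Cd8a (0.752), Cd3e (0.561), Cd3d (0.511), Cd247 (0.419), Zap70 (0.396), Foxp3 (0.320) and Cd3g (0.242 FPKM) followed. Within the libraries titled ApoE-/-, every Il7r level was above every Cd4 level and every Cd4 level above every Lck level. From Lck downwards, each gene overlapped its neighbour in this order. The receptor chains are therefore rare transcripts of the whole aorta, where the smooth muscle myosin Myh11 had 109 to 324 FPKM. Counts of Cd3g were 24 to 107 per library, those of Cd3d 36 to 166 and those of Zap70 24 to 257, which limits how small a difference can be seen.

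**Figure D1:**
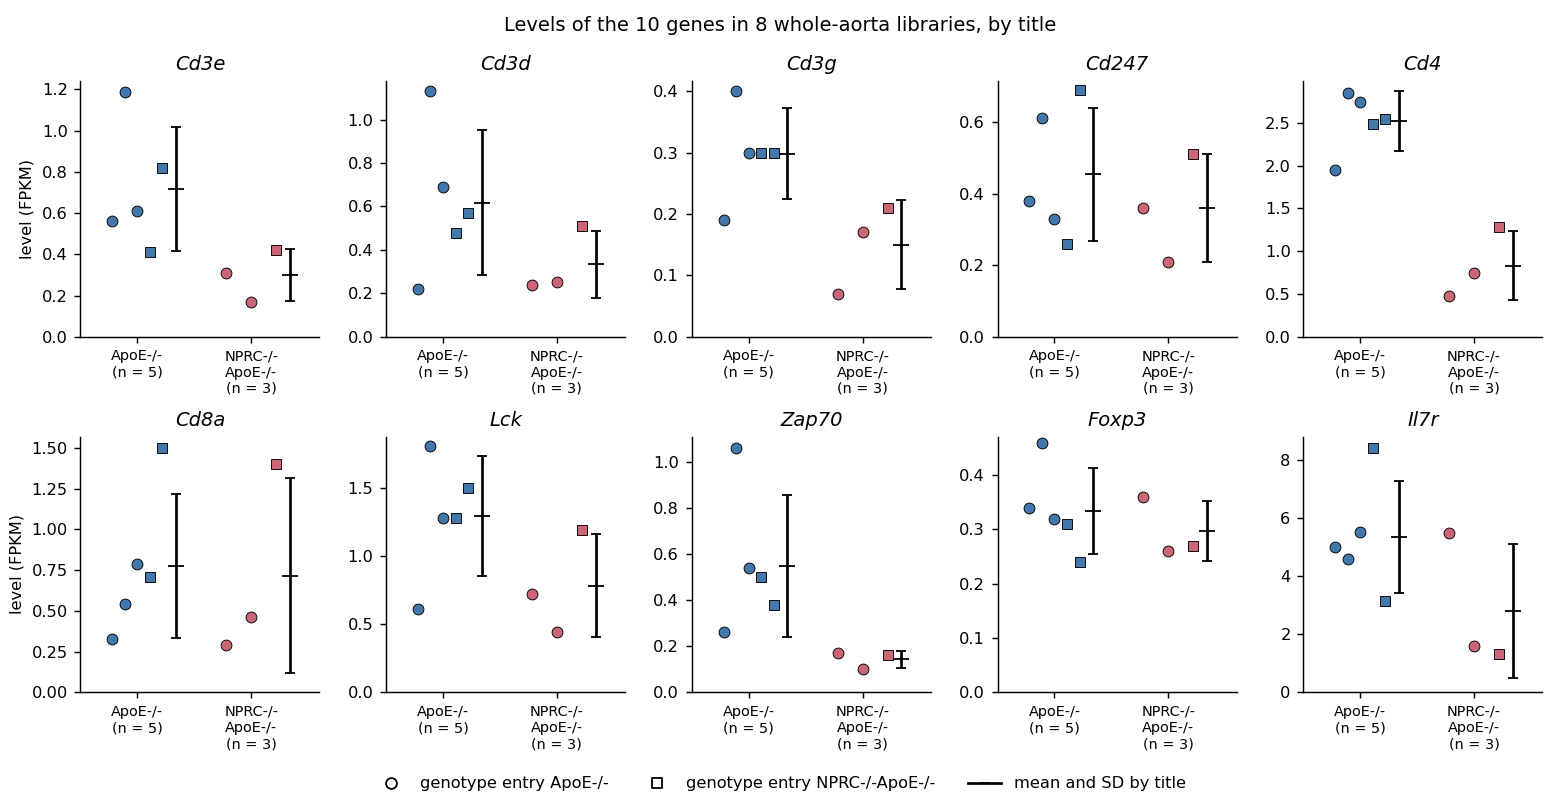
Level in FPKM (vertical axis, from 0) of each of the 10 genes in the 8 libraries, which stand by title along the horizontal axis. Circles are libraries entered as ApoE-/-, squares are libraries entered as NPRC-/-ApoE-/-, and the black mark is the mean with the SD by title. Cd4 and Zap70 do not overlap between the titled groups, and Cd8a has its highest values in ApoE-/- 5 and NPRC-/-ApoE-/- 3.

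The first question is whether T cell transcripts differed between the genotypes. By title, all 10 genes had a lower mean in NPRC-/-ApoE-/- aortas, but their differences ranged from almost none in Cd8a to 3.71-fold in Zap70. The study called a gene changed at a fold below 0.5 or above 2 with an unadjusted p under 0.05. Only 3 members (Cd4, Lck and Il7r) reached 1 FPKM in at least 3 libraries, the filter used for the fit of 20506 loci, and of these Cd4 met the criterion, against 2.39% of all loci tested that met it on the lower side. At an unadjusted p under 0.05 alone, it was again Cd4, against 7.13% of loci. The other 7 members have values from edgeR's own filter on low counts, filterByExpr, with 32816 loci. There, Cd4, Cd3e and Zap70 met the criterion, 3 of 10 (30.0%), against 3.77% of loci on the lower side, and 0 members met it on the higher side, against 1.53%. With Cd3g, 4 of 10 (40.0%) were lower at an unadjusted p under 0.05, against 7.14% of loci. The median log2 fold change of the 10 members was -0.89, and that of all loci tested was -0.0088.

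After Benjamini-Hochberg adjustment, edgeR's quasi-likelihood test called 0 members in either fit, and 0% of all loci passed an adjusted p under 0.05 in either. The smallest adjusted p of a member was 0.208, for Cd4. DESeq2 on the loci of filterByExpr gave adjusted p-values of 0.000757 for Cd4 and 0.00734 for Zap70, 2 of 10 members, against 3.03% of loci that passed an adjusted p under 0.05 in either direction. At an unadjusted p under 0.05 it called 5 members lower, against 8.82% of loci. In whole tissue, fewer T cells and less RNA per cell cannot be told apart.

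Cd3e was the one of the 4 invariant chains that met the criterion by title. CD3 epsilon pairs with both CD3 delta and CD3 gamma in the assembled receptor. Its levels were 0.56, 1.19, 0.61, 0.41 and 0.82 FPKM in ApoE-/- 1 to 5 and 0.31, 0.17 and 0.42 FPKM in NPRC-/-ApoE-/- 1 to 3. NPRC-/-ApoE-/- 3 lay just above ApoE-/- 4, and the other 2 lay below every ApoE-/- library. Its log2 fold change was -1.20 ± 0.40 (SE, n = 5 and 3, edgeR adjusted p = 0.306). Without ApoE-/- 2 it was -0.96, and without NPRC-/-ApoE-/- 2 it was -0.89, neither of which met the criterion.

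Cd3g encodes CD3 gamma. Its levels were 0.19, 0.40, 0.30, 0.30 and 0.30 FPKM in ApoE-/- 1 to 5 and 0.07, 0.17 and 0.21 FPKM in NPRC-/-ApoE-/- 1 to 3, so that 2 of 3 lay below every ApoE-/- library. This was a log2 fold change of -0.99 ± 0.41 (edgeR adjusted p = 0.371), a fold of 0.505, just short of the criterion. It met the criterion without ApoE-/- 1 (-1.12) and without NPRC-/-ApoE-/- 3 (-1.35). With any other library left out, edgeR's unadjusted p was above 0.05, and the log2 fold change shrank to -0.63 without NPRC-/-ApoE-/- 1. Cd3d, which encodes CD3 delta, had 0.22, 1.13, 0.69, 0.48 and 0.57 FPKM in ApoE-/- 1 to 5 and 0.24, 0.25 and 0.51 FPKM in NPRC-/-ApoE-/- 1 to 3. The lowest value was in an ApoE-/- library and the groups overlapped, with a log2 fold change of -0.84 ± 0.52 (edgeR adjusted p = 0.528). Without ApoE-/- 1 it was -1.06 and met the criterion, and without ApoE-/- 2 it was -0.54.

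Cd247 encodes the zeta chain, which carries most of the signalling motifs of the receptor. Its intronic locus had 0.38, 0.61, 0.33, 0.26 and 0.69 FPKM in ApoE-/- 1 to 5 and 0.36, 0.21 and 0.51 FPKM in NPRC-/-ApoE-/- 1 to 3. The groups overlapped widely, with a log2 fold change of -0.28 ± 0.37 (edgeR adjusted p = 0.793). The locus that covers the exons had 0.31, 0.48, 0.26, 0.25 and 0.43 FPKM against 0.15, 0.21 and 0.30 FPKM. It also overlapped, and its log2 fold change was -0.58 ± 0.30 (edgeR adjusted p = 0.465).

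The coreceptors differed from each other. Cd4 had 1.95, 2.85, 2.75, 2.49 and 2.55 FPKM in ApoE-/- 1 to 5 and 0.48, 0.74 and 1.28 FPKM in NPRC-/-ApoE-/- 1 to 3. Every NPRC-/-ApoE-/- library lay below every ApoE-/- library, and the ApoE-/- libraries varied by only 1.46-fold, the narrowest range of the 10 genes within that group. The group means were 2.52 ± 0.35 FPKM (SD, n = 5) and 0.833 ± 0.408 FPKM (SD, n = 3). The log2 fold change was -1.56 ± 0.33 (edgeR adjusted p = 0.222), 2.95-fold lower. With each library left out in turn it stayed between -2.06 and -1.27, and each of these fits met the criterion.

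Cd8a encodes the alpha chain of CD8, found on cytotoxic T cells and on most thymocytes. It had 0.33, 0.54, 0.79, 0.71 and 1.50 FPKM in ApoE-/- 1 to 5 and 0.29, 0.46 and 1.40 FPKM in NPRC-/-ApoE-/- 1 to 3. One library of each titled group stood well above the others, ApoE-/- 5 and NPRC-/-ApoE-/- 3. The log2 fold change was -0.05 ± 0.59 (edgeR adjusted p = 0.984). Its sign depended on single libraries: it was 0.29 without ApoE-/- 5, 0.34 without NPRC-/-ApoE-/- 1, 0.23 without NPRC-/-ApoE-/- 2 and -1.05 without NPRC-/-ApoE-/- 3.

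Of the kinases, Zap70 had the largest difference of the 10 genes. Its levels were 0.26, 1.06, 0.54, 0.50 and 0.38 FPKM in ApoE-/- 1 to 5 and 0.17, 0.10 and 0.16 FPKM in NPRC-/-ApoE-/- 1 to 3, with no overlap between the groups. On the log2 scale Zap70 differed by -1.89 ± 0.48 (edgeR adjusted p = 0.24). It stayed between -2.08 and -1.54 with each library left out, and each of these fits met the criterion. Lck had 0.61, 1.81, 1.28, 1.28 and 1.50 FPKM in ApoE-/- 1 to 5 and 0.72, 0.44 and 1.19 FPKM in NPRC-/-ApoE-/- 1 to 3. ApoE-/- 1 lay among the NPRC-/-ApoE-/- libraries, and the log2 fold change was -0.68 ± 0.41 (edgeR adjusted p = 0.48). Without NPRC-/-ApoE-/- 3 it was -1.15 and met the criterion, and without NPRC-/-ApoE-/- 2 it was -0.36. Cd4 and Zap70 were thus the 2 members of 10 whose titled groups did not overlap, with NPRC-/-ApoE-/- lower. Over all loci, 4.08% of those of filterByExpr and 3.69% of those of the FPKM filter separated in this way.

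Foxp3 and Il7r followed neither pattern. Foxp3 had 0.34, 0.46, 0.32, 0.31 and 0.24 FPKM in ApoE-/- 1 to 5 and 0.36, 0.26 and 0.27 FPKM in NPRC-/-ApoE-/- 1 to 3. It was the least variable member across the 8 libraries (1.92-fold from lowest to highest), and its lowest value was in an ApoE-/- library. On the log2 scale Foxp3 differed by -0.15 ± 0.25 (edgeR adjusted p = 0.835). Its locus includes Flicr, so these counts are those of both genes.

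Il7r had 5.02, 4.59, 5.54, 8.42 and 3.16 FPKM in ApoE-/- 1 to 5 and 5.48, 1.61 and 1.33 FPKM in NPRC-/-ApoE-/- 1 to 3. NPRC-/-ApoE-/- 1 lay within the ApoE-/- range, and the other 2 lay below all of it. The log2 fold change was -0.94 ± 0.50 (edgeR adjusted p = 0.431). Without NPRC-/-ApoE-/- 1 it was -1.84 and met the criterion, and with any library left out in turn it was -0.61 or lower.

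**Figure D2:**
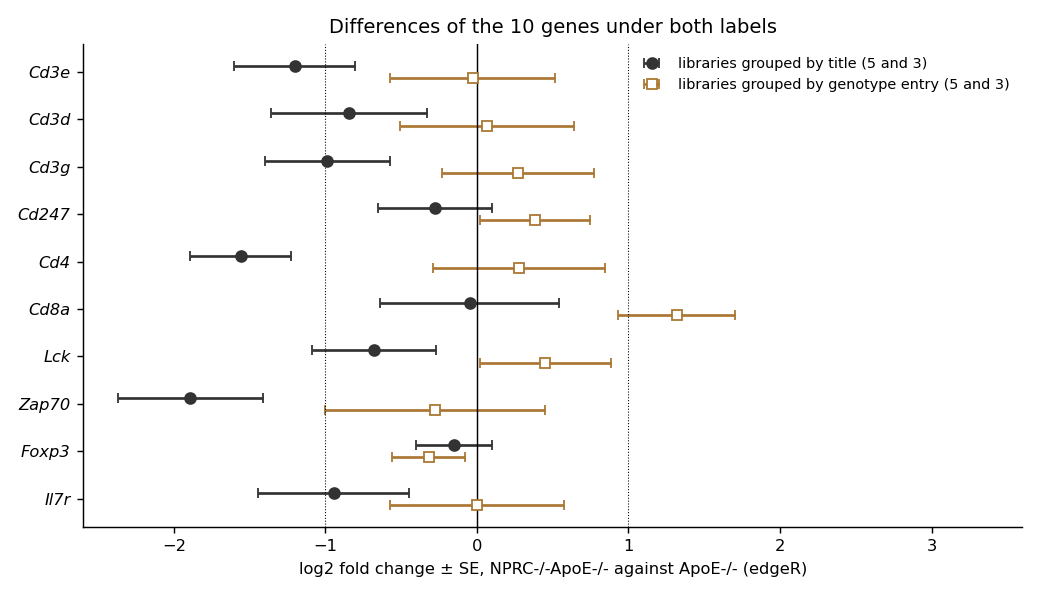
Log2 fold change of NPRC-/-ApoE-/- against ApoE-/- (horizontal axis, edgeR on the loci of filterByExpr, bars are the SE) for the 10 genes, with libraries grouped by title (filled circles) and by genotype entry (open squares). Dotted lines mark a 2-fold difference. By title all 10 lie below 0, with Zap70 at -1.89 and Cd4 at -1.56, and by genotype entry 7 of 10 lie above 0, with Cd8a at 1.32.

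Grouping by genotype entry gave another picture. None of the 10 genes was lower at an unadjusted p under 0.05, against 0.841% of loci, or by the study's criterion, against 0.503%. The median of the members was 0.17, with 7 of 10 above 0. The log2 fold change of Cd4 was 0.28 ± 0.57 (edgeR adjusted p = 1), that of Zap70 -0.28 ± 0.73 (edgeR adjusted p = 1) and that of Cd3e -0.03 ± 0.54 (edgeR adjusted p = 1). In place of them, Cd8a was higher in the libraries entered as NPRC-/-ApoE-/-, at 1.20 ± 0.43 FPKM (SD, n = 3) against 0.482 ± 0.199 FPKM (SD, n = 5). Its log2 fold change of 1.32 ± 0.39 (edgeR adjusted p = 1) made it 1 member of 10 that met the criterion on the higher side, against 0.509% of loci. The entered groups overlapped in all 10 genes. In the 4 libraries whose labels agree, 3 ApoE-/- against 1 NPRC-/-ApoE-/-, the values were -0.90 for Cd4, -1.89 for Zap70, -0.82 for Cd3e, -1.84 for Il7r and 1.40 for Cd8a, with no test.

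Cd8a did not stand alone in its 2 high libraries. Rag1, whose product cuts receptor genes in developing lymphocytes, had 0.51, 0.37, 0.30, 0.77 and 3.32 FPKM in ApoE-/- 1 to 5 and 0.43, 0.88 and 2.42 FPKM in NPRC-/-ApoE-/- 1 to 3. The same 2 libraries, ApoE-/- 5 and NPRC-/-ApoE-/- 3, were the highest in Rag1 and in Cd8a, and both are entered as NPRC-/-ApoE-/-. Cd8b1, the beta chain of CD8, had 1.41 and 1.23 FPKM there and 0.17 to 0.77 elsewhere. Dntt, the enzyme that adds bases to receptor gene joints, had 1.65 and 1.01 FPKM there and 0 to 0.47 elsewhere. Tcf7 and Satb1, transcription factors of thymocytes and naive T cells, had 3.14 and 2.63 FPKM and 1.95 and 1.54 FPKM there. Themis, which acts in thymocyte selection, and Arpp21 were also highest in these 2.

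Grouped by genotype entry, these genes were higher as Cd8a was, each at an unadjusted p under 0.05 and none after adjustment (edgeR adjusted p = 1 for each): the log2 fold change was 1.64 for Cd8b1, 1.11 for Tcf7, 1.00 for Satb1, 1.60 for Themis, 2.12 for Rag1, 3.00 for Dntt and 3.34 for Arpp21. At that p, 0.89% of all loci were higher by genotype entry. Rag1, Dntt and Arpp21 are 3 of the 8 genes of the thymocyte and thymic epithelium list that could be fitted. Of the other 5, none passed, and Cd1d1 (-0.09), Ccl25 (-0.14) and Rmnd5a (-0.16) were below 0 by genotype entry (edgeR adjusted p = 1 for each). By title none of the 7 genes from Cd8b1 to Arpp21 differed at an unadjusted p under 0.05. These 7 genes were singled out after their values were seen, as highest in ApoE-/- 5 and NPRC-/-ApoE-/- 3. Both libraries are entered as NPRC-/-ApoE-/-, so a higher mean by genotype entry follows from this choice. Their p-values by genotype entry are therefore no separate support for the Cd8a result. Of the 11 genes on the whole thymocyte list, 5 were at 0 in at least 1 library, including Foxn1 in all 8 and Ptcra and Psmb11 at no more than 0.08 FPKM. The summed level of that list lay between 10.1 and 19.2 FPKM in ApoE-/- aortas by title and between 12.8 and 14.3 FPKM in the others. The part of these transcripts in the Cd8a result was not tested.

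**Figure D3:**
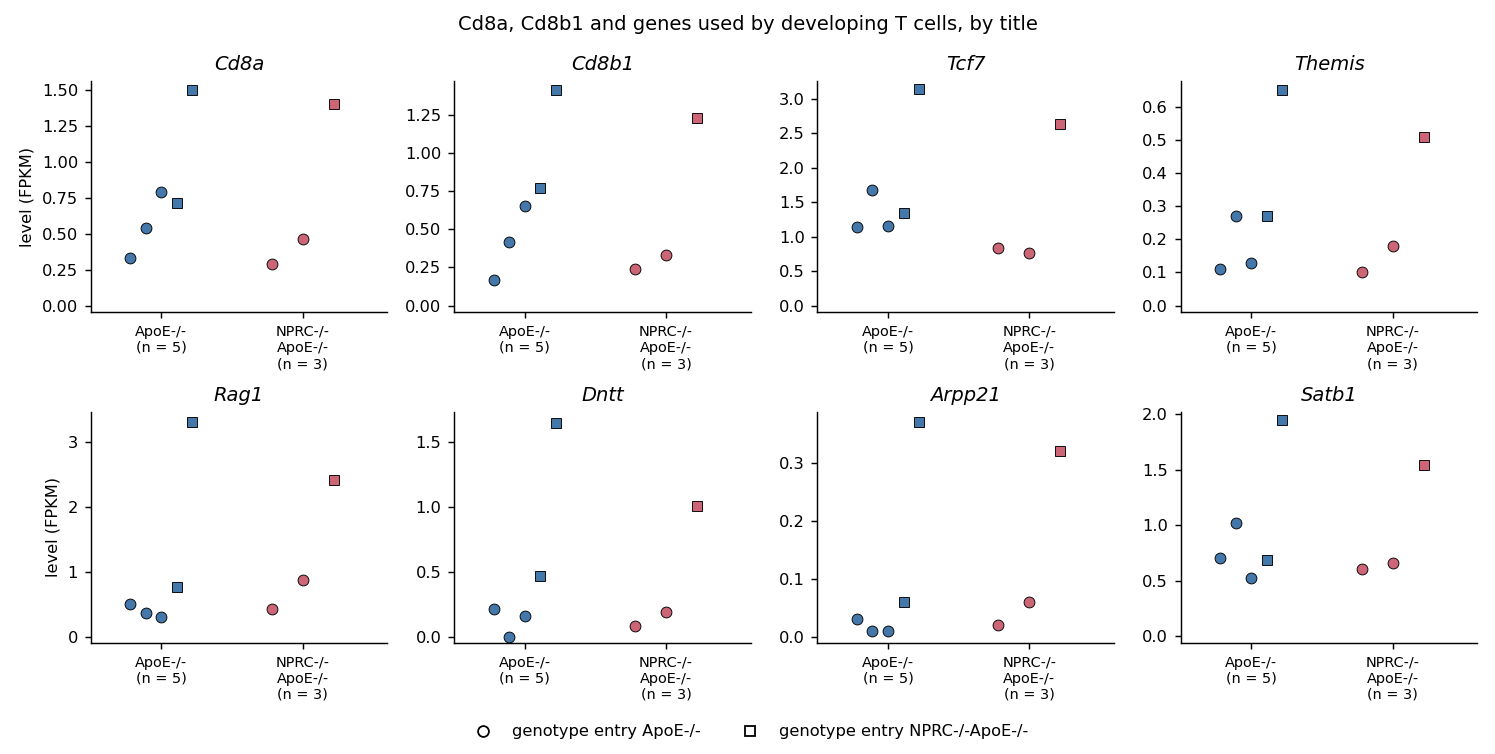
Level in FPKM (vertical axis) of Cd8a, Cd8b1 and 6 genes used by developing T cells in each library, by title along the horizontal axis. Circles are libraries entered as ApoE-/- and squares those entered as NPRC-/-ApoE-/-. In each panel the highest values are those of ApoE-/- 5 and NPRC-/-ApoE-/- 3, as in Rag1 with 3.32 and 2.42 FPKM.

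Without these 2 libraries, chosen after the data were seen, the differences by title were larger for most members. Cd4 was at -2.08 ± 0.30 (edgeR adjusted p = 0.308, n = 4 and 2), Zap70 at -2.12 ± 0.60 (edgeR adjusted p = 0.442), Cd3e at -1.53 ± 0.48 (edgeR adjusted p = 0.446), Cd3g at -1.37 ± 0.51 (edgeR adjusted p = 0.476) and Lck at -1.13 ± 0.46 (edgeR adjusted p = 0.489), so that 5 of 10 members met the criterion, against 3.77% of loci in the same fit. Cd8a was at -0.71 ± 0.46 (edgeR adjusted p = 0.622). NPRC-/-ApoE-/- 3 had the highest level of its titled group in Cd3e, Cd3d, Cd3g, Cd247, Cd4, Cd8a and Lck, so leaving it out lowers that group by construction. Without NPRC-/-ApoE-/- 3 alone, 5 members also met the criterion, against 2.8% of loci in that fit. The count without both libraries therefore adds nothing to the result with all libraries. By genotype entry, leaving out both libraries left ApoE-/- 4 alone in the group entered as NPRC-/-ApoE-/-. The difference of Cd8a was then 0.64, with no test. Both libraries left out were the highest in Cd8a, so their removal lowers this difference by construction. With each single library left out, the difference of Cd8a by genotype entry stayed between 1.15 and 1.62. Each of these fits met the criterion.

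A single library also carried much of the spread on the other side. ApoE-/- 2 had the highest level of 7 of the 10 members. The B cell list summed to 31.1 FPKM there, against 3.72 to 8.50 FPKM in the other libraries titled ApoE-/- and 1.79 to 6.12 FPKM in those titled NPRC-/-ApoE-/-, and the list of lymph node and lymphoid tissue genes to 25.8 FPKM, against at most 14.5 FPKM elsewhere. On these lists, Ms4a1, Lta and Madcam1 were at 0 in at least 1 library. NPRC-/-ApoE-/- 2 was below the median of the 8 libraries in all 10 members and NPRC-/-ApoE-/- 1 in 8 of 10. Without ApoE-/- 2, Cd4 and Zap70 still met the criterion and Cd3e did not.

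Ratios within a library compare transcripts of the members apart from their total. As Cd4 is also transcribed by subsets of dendritic cells, ratios over Cd4 are not those of T cell subsets alone. The 4 ratios were tested on log2(FPKM + 0.1), while the values printed for single libraries are plain ratios of FPKM. Groups were compared by exact permutation, two-sided, where 5 against 3 libraries can give no p below 0.0357, and p-values were adjusted over the 4. Cd8a/Cd4 was 0.169, 0.189, 0.287, 0.285 and 0.588 in ApoE-/- 1 to 5 and 0.604, 0.622 and 1.09 in NPRC-/-ApoE-/- 1 to 3. Every NPRC-/-ApoE-/- library lay above every ApoE-/- library, with a log2 difference of 1.36 (exact p = 0.0357, adjusted p = 0.0476). In plain FPKM the gap was narrow, since ApoE-/- 5 at 0.588 almost reached NPRC-/-ApoE-/- 1 at 0.604.

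Foxp3/Cd4 was 0.174, 0.161, 0.116, 0.124 and 0.0941 in ApoE-/- 1 to 5 and 0.750, 0.351 and 0.211 in NPRC-/-ApoE-/- 1 to 3. It was also higher in every NPRC-/-ApoE-/- library, by 1.45 on the log2 scale (exact p = 0.0357, adjusted p = 0.0476). Both ratios have Cd4 below the line, and neither Cd8a nor Foxp3 passed the test by title, so the lower Cd4 enters both and they are not 2 separate results.

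Cd247/Cd3e was 0.679, 0.513, 0.541, 0.634 and 0.841 in ApoE-/- 1 to 5 and 1.16, 1.24 and 1.21 in NPRC-/-ApoE-/- 1 to 3, a log2 difference of 0.75 (exact p = 0.0357, adjusted p = 0.0476). This ratio sets an intronic locus against an exonic one. With the exonic locus of Cd247, the groups overlapped and the difference was 0.53 (exact p = 0.107). The adjusted p of 0.0476 for Cd8a/Cd4, Foxp3/Cd4 and Cd247/Cd3e rests on all of them being tied at the smallest p possible. With the exonic locus in place of the intronic one, the adjusted p of Cd8a/Cd4 and Foxp3/Cd4 would be above 0.05. Il7r/Cd3e ranged from 3.85 to 20.5 in the ApoE-/- libraries and was 17.7, 9.47 and 3.17 in NPRC-/-ApoE-/- 1 to 3, a log2 difference of -0.11 (exact p = 0.929, adjusted p = 0.929).

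By genotype entry the log2 differences of the ratios were 0.70 for Cd8a/Cd4 (exact p = 0.321), -0.72 for Foxp3/Cd4 (exact p = 0.357), 0.17 for Cd247/Cd3e (exact p = 0.643) and -0.40 for Il7r/Cd3e (exact p = 0.536). In all 4 the entered groups overlapped, and the adjusted p was 0.643 for each. Without 1 library, the smallest p that the exact test allows is above 0.05, so that no ratio could pass.

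**Figure D4:**
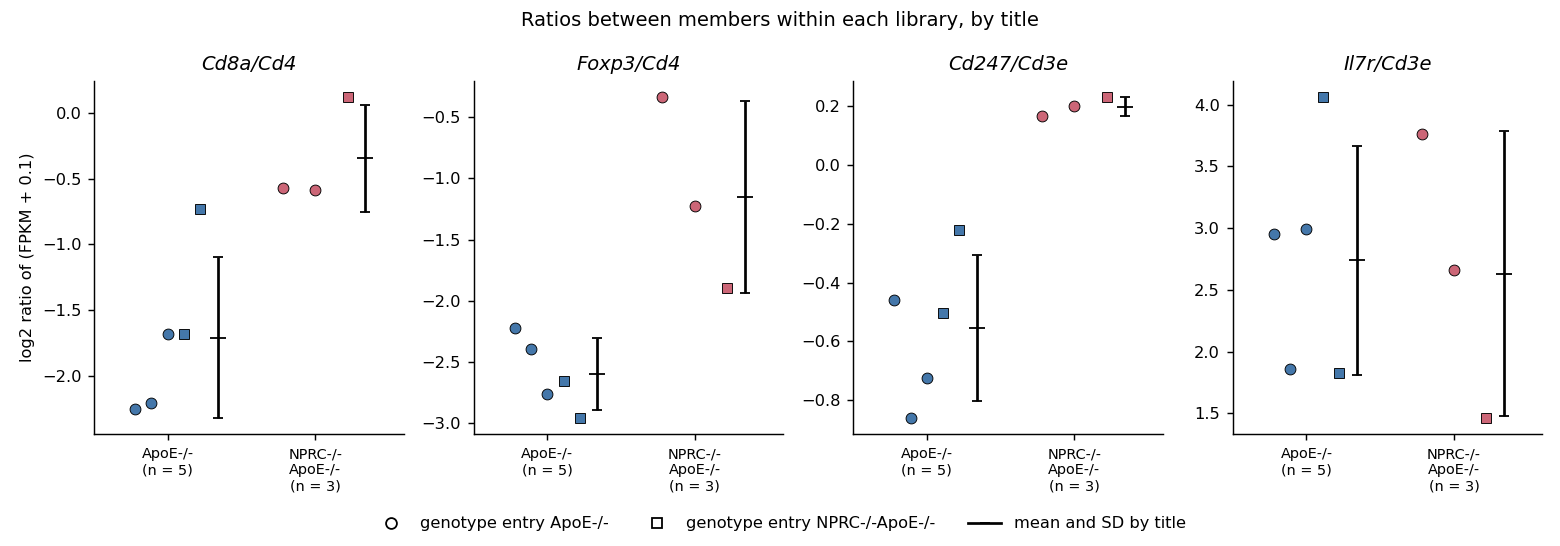
Log2 ratio of (FPKM + 0.1) between pairs of members in each library (vertical axis), by title along the horizontal axis, with circles for libraries entered as ApoE-/-, squares for those entered as NPRC-/-ApoE-/-, and the mean with the SD by title. Cd8a/Cd4, Foxp3/Cd4 and Cd247/Cd3e do not overlap between the titled groups, and Il7r/Cd3e does.

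The other genes of the pathway were taken from fixed lists. Of 7 constant regions of the receptor's own chains, 4 had a locus, and all 4 were lower by title with 1 at an unadjusted p under 0.05. This was Trdc, the constant region of the delta chain, with 0.26, 0.30, 0.34, 0.27 and 0.25 FPKM in ApoE-/- 1 to 5 and 0.08, 0.08 and 0.11 FPKM in NPRC-/-ApoE-/- 1 to 3. Its log2 fold change was -1.67 ± 0.29 (edgeR adjusted p = 0.187) with no overlap, and -0.02 by genotype entry (edgeR adjusted p = 1). Trac, the constant region of the alpha chain, was at -0.44 ± 0.32 (edgeR adjusted p = 0.56), and Trbc1 and Trbc2, whose near-identical sequences could share reads, were at -1.08 ± 0.54 (edgeR adjusted p = 0.408) and -0.74 ± 0.55 (edgeR adjusted p = 0.562).

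Of 28 genes of T cell receptor signalling, all had a locus and 28 could be fitted. By title 25 were lower, 9 of them (32.1%) at an unadjusted p under 0.05, against the 7.14% of loci given above, and 0 were higher at that p. The median was -0.57. The adaptor Lcp2 (SLP-76) was at -1.06 ± 0.27 (edgeR adjusted p = 0.255), the phosphatase Ptprc (CD45) at -1.23 ± 0.38 (edgeR adjusted p = 0.285) and the transcription factor Nfatc2 at -0.70 ± 0.22 (edgeR adjusted p = 0.284). These 3 are shared with other leukocytes. Of the genes nearest to the receptor in T cells, the adaptor Lat was at -1.06 ± 0.52 (edgeR adjusted p = 0.439). Fyn was listed at 0 in ApoE-/- 3 and 4 and at 1.32 to 2.64 FPKM elsewhere, and is not read further. By genotype entry 0 of the 28 were lower at an unadjusted p under 0.05 and 1, Themis, was higher.

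Of 17 surface proteins and lineage factors of T cells, 15 were lower by title, 4 of them (23.5%) at an unadjusted p under 0.05, with a median of -0.34. These were Cd28, the costimulatory receptor, at -1.20 ± 0.23 (edgeR adjusted p = 0.187), Il2ra at -1.40 ± 0.39 (edgeR adjusted p = 0.256), Cd2 at -0.98 ± 0.43 (edgeR adjusted p = 0.394) and Cd27 at -0.34 ± 0.14 (edgeR adjusted p = 0.344). Cd28 had 0.68 to 1.06 FPKM in the ApoE-/- libraries and 0.29 to 0.43 in the others. The lineage factors Tcf7 (-0.19 ± 0.49, edgeR adjusted p = 0.885) and Ikzf2 (-0.17 ± 0.22, edgeR adjusted p = 0.757) did not pass the test.

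Around Il7r, 9 genes of its pathway were fitted, of which 8 were lower by title, 2 of them (22.2%) at an unadjusted p under 0.05, with a median of -0.38. Il2rg, the common gamma chain that pairs with IL7R, was at -0.87 ± 0.28 (edgeR adjusted p = 0.29), and the kinase Jak1 at -0.38 ± 0.14 (edgeR adjusted p = 0.322). Jak3, the kinase bound to the gamma chain, was at -0.41 ± 0.19 (edgeR adjusted p = 0.381), and Bcl2, the survival gene downstream, at 0.37 ± 0.18 (edgeR adjusted p = 0.389). The ligand Il7 was between 0.15 and 0.45 FPKM in all libraries. By genotype entry 0 of the 9 passed an unadjusted p under 0.05 in either direction.

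Genes of other leukocytes were lower by title as well. Of 12 macrophage genes 12 were lower, 7 of them at an unadjusted p under 0.05, against 7.14% of loci. Their summed level was 755 to 2330 FPKM in the ApoE-/- libraries and 358 to 1180 FPKM in the others. Of 10 dendritic cell genes 9 were lower, 7 at that p, with sums of 206 to 421 FPKM against 54.3 to 170 FPKM. Among them Cd74 was at -1.87 ± 0.40 (edgeR adjusted p = 0.222), H2-Aa at -1.94 ± 0.54 (edgeR adjusted p = 0.255), H2-Ab1 at -1.83 ± 0.55 (edgeR adjusted p = 0.277) and Cd209a at -1.68 ± 0.35 (edgeR adjusted p = 0.216). Among the macrophage genes, Mrc1 was at -0.63 ± 0.12 (edgeR adjusted p = 0.203), Csf1r at -0.93 ± 0.29 (edgeR adjusted p = 0.285), C1qa at -1.37 ± 0.43 (edgeR adjusted p = 0.285) and Fcgr1 at -1.46 ± 0.53 (edgeR adjusted p = 0.313). No gene of either list was at 0 in any library. By genotype entry 10 macrophage genes were lower, 0 of them at an unadjusted p under 0.05, with a median of -0.15. Of the dendritic cell genes 8 were lower by genotype entry, 1 of them at that p, against 0.841% of loci, with a median of -0.55. The part of these cells in the Cd4 result was not tested.

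Of 10 cytotoxic and natural killer cell genes fitted, 6 were lower by title at an unadjusted p under 0.05, against 7.14% of loci. The list summed to 5.83 to 6.29 FPKM in the ApoE-/- libraries and 2.74 to 3.77 FPKM in the others. Gzma, Gzmk, Klrd1, Eomes and Cd7 were at 0 in at least 1 library. Nkg7 was at -1.48 ± 0.60 (edgeR adjusted p = 0.336) and Cd7 at -2.36 ± 0.90 (edgeR adjusted p = 0.324). Of 7 innate lymphoid and mast cell genes fitted, 5 were lower at that p, with sums of 9.17 to 23.3 FPKM against 5.90 to 6.97 FPKM. They were led by the mast cell proteases Cma1 (-1.90 ± 0.40, edgeR adjusted p = 0.222), Tpsb2 (-2.02 ± 0.45, edgeR adjusted p = 0.224), Mcpt4 (-1.80 ± 0.49, edgeR adjusted p = 0.255) and Cpa3 (-1.53 ± 0.34, edgeR adjusted p = 0.224). Areg on this list was at 0 in at least 1 library. Of 10 B cell genes, 2 were lower at that p, with Cd22 at -1.54 ± 0.44 (edgeR adjusted p = 0.267) and Cd79b at -2.22 ± 1.04 (edgeR adjusted p = 0.385). Of 9 lymph node and lymphoid tissue genes fitted, 9 were lower, 2 of them at that p. Cxcl13 was at -2.33 ± 0.71 (edgeR adjusted p = 0.285) and Ccr7 at -1.58 ± 0.63 (edgeR adjusted p = 0.331). Ltb was at -1.20 ± 0.78 (edgeR adjusted p = 0.514) and Ccl21a at -0.39 ± 0.29 (edgeR adjusted p = 0.56). By genotype entry 0 genes of the first 2 of these lists were lower at that p. Of the B cell genes 3 were, and of the lymph node and lymphoid tissue genes 1 was, against 0.841% of loci. All 10 B cell genes were lower by genotype entry, with a median of -1.83 (-1.58 by title).

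Smooth muscle genes went the other way by title. Of 10 smooth muscle genes 9 were higher at an unadjusted p under 0.05, against 5.52% of loci, with a summed level of 1350 to 1810 FPKM in the ApoE-/- libraries and 1750 to 3000 FPKM in the others. Smtn was at 0.99 ± 0.24 (edgeR adjusted p = 0.255), Mylk at 0.95 ± 0.29 (edgeR adjusted p = 0.284), Myh11 at 0.84 ± 0.27 (edgeR adjusted p = 0.29) and Cnn1 at 0.66 ± 0.17 (edgeR adjusted p = 0.255). Of 10 endothelial genes 1, Erg, was higher at that p (0.48 ± 0.21, edgeR adjusted p = 0.364), while Cdh5 (-0.25 ± 0.12, edgeR adjusted p = 0.381), Egfl7 (-0.35 ± 0.18, edgeR adjusted p = 0.43) and Tie1 (-0.19 ± 0.18, edgeR adjusted p = 0.644) did not pass. None of 10 white fat and 8 brown fat genes passed by edgeR's unadjusted p under 0.05. Those of smallest p were Plin4 (0.25, edgeR adjusted p = 0.525), Cfd (-0.71, edgeR adjusted p = 0.539), Lpl (-0.40, edgeR adjusted p = 0.558) and Retn (-0.40, edgeR adjusted p = 0.824) for white fat, and Elovl3 (0.73, edgeR adjusted p = 0.444), Ppargc1a (0.67, edgeR adjusted p = 0.566), Kcnk3 (0.34, edgeR adjusted p = 0.649) and Ucp1 (0.44, edgeR adjusted p = 0.654) for brown fat. By genotype entry 0 genes of the smooth muscle, endothelial and fat lists passed edgeR's unadjusted p under 0.05 in either direction. The median of the smooth muscle genes was then 0.16, against 0.74 by title. All these levels are relative to the whole library, in which leukocyte and smooth muscle transcripts share the total. Of the thymocyte list, Cd1d1 was at -0.45 by title (edgeR adjusted p = 0.636), Ccl25 at 0.14 (edgeR adjusted p = 0.824) and Rmnd5a at 0.02 (edgeR adjusted p = 0.962).

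**Figure D5:**
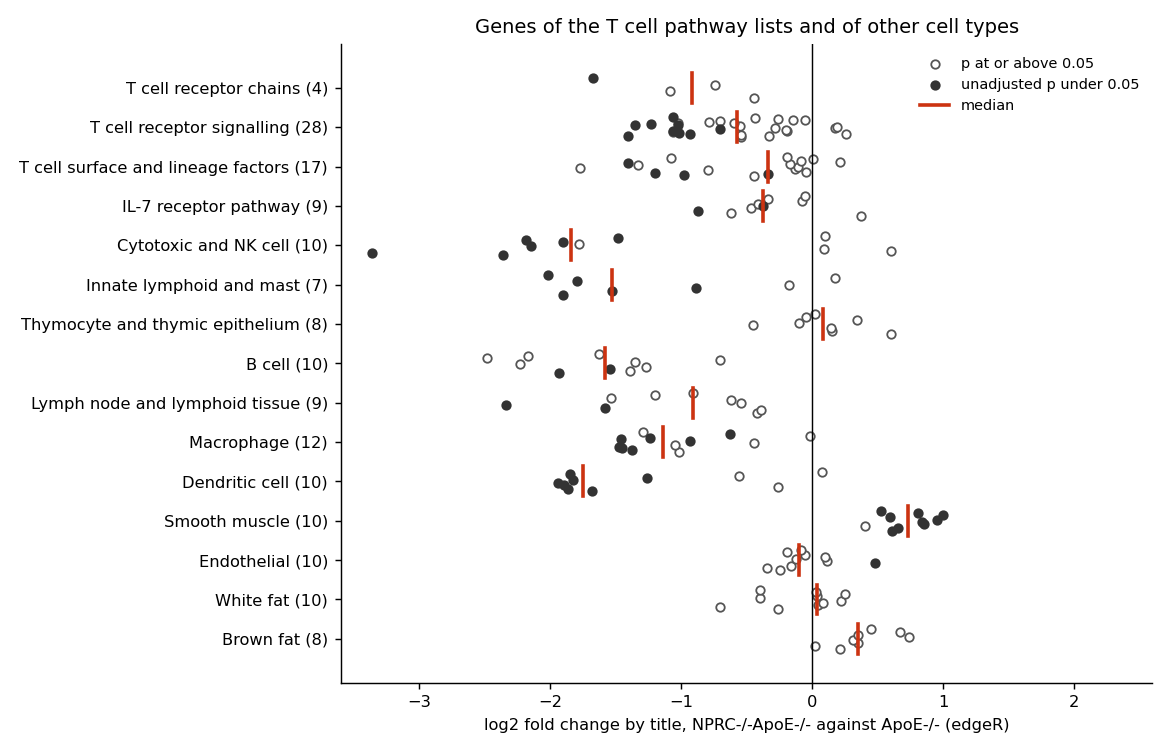
Log2 fold change by title (horizontal axis, edgeR on the loci of filterByExpr) of each gene of the T cell pathway lists and of the lists of other cell types, with the number of genes fitted in brackets. Filled points have an unadjusted p under 0.05, and red lines are medians, which are -0.57 for T cell receptor signalling, -1.14 for macrophage, -1.75 for dendritic cell and 0.74 for smooth muscle genes.

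The loci whose pattern was most like the mean log2 CPM of the tested members (Cd4, Lck and Il7r) over the 8 libraries had Pearson correlations of 0.957 to 0.986. They were Hist1h2ad (r = 0.986, Spearman rho = 1), Gm37370 (0.982), Lmnb1 (0.974), Klhl5 (0.974), Rab14 (0.970), Erlec1 (0.967), Hist1h2af (0.967), Nod2 (0.960), Dmac1 (0.960) and Ywhae (0.957). They are the highest of 20506 loci and were chosen for their likeness, so no test is given, and all points share the libraries and their scaling. Histone genes such as Hist1h2ad and Hist1h2af have near-identical copies between which reads may be split. None of the 10 is a gene of the T cell pathway lists.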

How the data were processed

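Expression in whole aortas of ApoE-/- and NPRC-/-ApoE-/- mice was taken from a single deposited table with 8 libraries. Reads were trimmed by the authors (cutadapt 1.9, per the labels), mapped with HISAT2 to GRCm38, the build in the submitters' processing notes, and assembled with StringTie. The deposited counts are whole numbers per locus without normalization. The deposited FPKM values were normalized by the authors to transcript length and mapped fragments. The library kit marks strand, but how reads were counted, and whether by strand, is not given in the sources used here.

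The first fit in edgeR 4.0.16 and R 4.3.3 took loci that reached 1 FPKM in 3 or more libraries (TMM, quasi-likelihood F test, Benjamini-Hochberg adjustment). As 7 of the 10 members fall below this filter, their values come from a second fit with edgeR's filterByExpr, as do those of list genes below it and the counts per list. For list genes above the filter, log2 fold changes by title are those of the FPKM filter. The criterion of the study (fold below 0.5 or above 2, unadjusted p-value under 0.05) was used for calls. Ratios were compared with exact permutation tests in scipy 1.17.1. The fits were tested on simulated data with known changes. The common biological coefficient of variation was 0.327, so the number of libraries limits the precision more than depth does for all but the rarest members.

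The members and lists were chosen with earlier results of these data known. Named genes are the 10 members, up to 4 genes of smallest p by title per list, and the 10 loci most alike the tested members. Trdc, Cd28, Il2ra, Cd2, Lat, Il7, Fyn and the genes discussed with Rag1 were added after their values were seen. No gene is on 2 lists. Titles give the groups, and a common replicate number did not pair libraries (correlations of -0.314, -0.113 and 0.007). Alternatives covered the label, DESeq2 1.42.0, limma 3.58.1, the filter, the scaling, summed loci, the replicate block and each library left out. Columns of values that no sample could be given to numbered 0. Sequences of proteins were not used here. Some genes of the lists count in the totals and are not reported here by name.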

Additional observations from a re-analysis of the deposited data

Results flagged for a closer look

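With 14 levels and ratios of the members examined in each group of 5 libraries (28 in all, by title and by genotype entry), Dixon's ratio of the gap to the range was above 0.71 in 2, while about 1 in 20 such groups, or 1.4 here, would be by chance. Lck was at a log2 CPM of 1.14 in ApoE-/- 1, far below the other 4 libraries titled ApoE-/-. Il7r was at a log2 CPM of 3.95 in NPRC-/-ApoE-/- 2, far below the other 4 libraries entered as ApoE-/-.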

How the results depend on the processing

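The label decided more than any other choice. Grouped by genotype entry instead of by title, 0 members were lower by the criterion, with the FPKM filter and with filterByExpr. The median of the members was 0.28 (0.17 with filterByExpr). With the FPKM filter, 0 genes of the T cell pathway lists (10 by title) and 1 of the lists of other cell types (20 by title) were lower at an unadjusted p under 0.05. With filterByExpr, the genes lower at that p were 3 of the B cell list, 1 of the dendritic cell list and 1 of the lymph node and lymphoid tissue list. The log2 fold changes turned positive for Cd4 (0.28 with either filter), Lck (0.45 with either filter), Cd3d (0.066), Cd3g (0.27), Cd247 (0.38), Cd8a (1.32) and, with filterByExpr only, Il7r (0.002, against -0.008 with the FPKM filter). In the 4 libraries whose labels agree, the median with filterByExpr was -0.44, and Cd247 (0.30), Cd8a (1.40) and Lck (0.017, or 0.010 with filterByExpr) were above 0. Cd8a was also above 0 in the 6 libraries with shared numbers, at 0.17 with the replicate block and 0.41 without it, and between 0.23 and 0.34 when ApoE-/- 5, NPRC-/-ApoE-/- 1 or NPRC-/-ApoE-/- 2 was left out. Cd247 was at 0.023 without NPRC-/-ApoE-/- 2.

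The criterion was met by 1 member with the FPKM filter, against 2.39% of loci. It was met by 3 members with filterByExpr (3.77% of loci), with DESeq2 on the same loci (4.4%) and with no filter (3.45%). In the 6 libraries on the loci of filterByExpr, 3 also met it, with the replicate block (3.62%) and without it (4.18%). With limma, 2 met it on log2(FPKM + 0.1) (2.41%) and 0 on log2(FPKM + 1) (0.668%), which shrinks the folds of low genes. With each library left out, 1 to 2 met it with the FPKM filter, against 1.11% to 5.32% of loci. With filterByExpr it was 2 to 5, against 2.19% to 6.76%. Without the 2 libraries highest in Rag1 it was 2 and 5, against 2.28% and 3.77% of loci. An adjusted p under 0.05 was reached by 0 members with edgeR, by 1 with DESeq2 (2 on the loci of filterByExpr) and by 2 with limma and array quality weights, where 3.14%, 3.03% and 5.70% of all loci passed. The block moved Cd3e to -1.33, no longer at p under 0.05, and Cd3g to -1.06, which met the criterion, and as the numbers do not pair the libraries this says nothing of the effect. Of the T cell pathway lists, 16 genes were lower at an unadjusted p under 0.05 with filterByExpr, 19 with array quality weights, 21 without the 2 libraries highest in Rag1 with filterByExpr, and 4 to 15 with each library left out, the fewest without NPRC-/-ApoE-/- 2. For the other cell types it was 13 to 27, again fewest without that library. Of all loci, 7.14% were lower at that p with filterByExpr and 16.6% with array quality weights. It was 6.05% without the 2 libraries highest in Rag1 with filterByExpr, and 2.92% to 11.6% with each library left out.

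For the 3 ratios whose titled groups did not overlap, the values by genotype entry were 0.70 for Cd8a/Cd4, -0.72 for Foxp3/Cd4 and 0.17 for Cd247/Cd3e. None of these was at p under 0.05 in the exact test. By title, Cd247/Cd3e was 0.53 with the exonic Cd247 locus, where the groups overlapped. With fewer libraries the exact test cannot reach p under 0.05: the values, in the same order, were 1.13 to 1.61, 1.04 to 1.82 and 0.68 to 0.84 with each library left out, 1.38, 1.73 and 0.82 without the 2 libraries highest in Rag1, and 1.70, 1.31 and 0.88 with the replicate block over 3 numbers (smallest p 0.25). Il7r/Cd3e changed sign with log2 CPM, also with loci of a symbol added up (0.085 in both), with the block (0.027) and without the 2 libraries (0.25), and was between -0.68 and 0.48 with each library left out. Of the single genes, Il7r met the criterion with limma on log2(FPKM + 0.1) (-1.12) and with array quality weights (-1.14), and Cd4 fell short of the 2-fold change with limma on log2(FPKM + 1) (-0.96) and with array quality weights (-0.93). Apart from these and the values given in the report with libraries left out, the alternatives run kept direction and side of the criterion. The side of an unadjusted p under 0.05 alone was less stable. Cd3g no longer passed it in the 6 libraries without the replicate block. Il7r passed it with DESeq2 and with limma on log2(FPKM + 1), and Lck passed it without ApoE-/- 1. Counts of 24 to 257 per library for Cd3g, Cd3d and Zap70 limit these 3 most.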
